A study of Homo sapiens with 6 samples.

Results

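The genes described here are 9 genes of the DNA damage response that bear on the sensitivity of Ewing sarcoma to PARP inhibitors and replication stress: PARP1, PARP2, XRCC1, SLFN11, BRCA1, BRCA2, ATR, CHEK1 and WEE1. They were found by symbol, and all 9 were present among the 26364 symbols of the expression table. RNAseq was performed on A673/TR/shEF cells, a derivative of the Ewing sarcoma cell line A673 that carries a doxycycline-inducible shRNA directed at the EWSR1::FLI1 fusion mRNA and is kept under blasticidin and zeocin. Libraries came from 3 untreated samples (EWSR1::FLI1 high, replicates 1 to 3) and from 3 samples given doxycycline at 1 µg/mL for 72 h (EWSR1::FLI1 low, likewise replicates 1 to 3), all with the same engineered genotype. Doxycycline was given to the EWSR1::FLI1 low samples alone, so the effect of the drug and that of the knockdown cannot be told apart. Whether the replicates are clones or repeated experiments of 1 line was not settled by the descriptions, and the p-values measure the spread between these samples, which may be technical.

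PARP1 and PARP2 bind broken DNA and attach chains of ADP-ribose to themselves and to nearby proteins, which recruits the scaffold XRCC1 and the ligases that seal single-strand breaks. PARP inhibitors trap these enzymes on DNA. Forks that meet a trapped enzyme need homologous recombination, in which BRCA1 promotes resection of the ends and BRCA2 acts on the resected DNA, and they need the checkpoint run by the kinases ATR, CHK1 (gene CHEK1) and WEE1. SLFN11, a Schlafen family protein, is recruited to stressed forks and blocks them irreversibly, and its level is widely used as a marker of response to DNA-damaging drugs. EWSR1::FLI1 is an aberrant ETS transcription factor that binds GGAA motifs, both single and in tandem repeats, and Ewing sarcoma cell lines are known for high PARP1 and SLFN11.

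Because ETS factors read GGAA, the promoters of the 2 genes best known from Ewing sarcoma, SLFN11 and PARP1, and that of BRCA2, the member with the largest difference in level, are shown with each GGAA in capitals (TTCC where it lies on the other strand). Each runs 5′ to 3′ on the strand of its gene, from 250 bases before the RefSeq start site to 50 bases after it, so that the end of each sequence is transcribed. The sequences are RefSeq's promoter entries and each had 1 exact match in GRCh37: chr17:33700591-33700890 on the minus strand for SLFN11, chr1:226595745-226596044 on the minus strand for PARP1 and chr13:32889395-32889694 on the plus strand for BRCA2.
SLFN11: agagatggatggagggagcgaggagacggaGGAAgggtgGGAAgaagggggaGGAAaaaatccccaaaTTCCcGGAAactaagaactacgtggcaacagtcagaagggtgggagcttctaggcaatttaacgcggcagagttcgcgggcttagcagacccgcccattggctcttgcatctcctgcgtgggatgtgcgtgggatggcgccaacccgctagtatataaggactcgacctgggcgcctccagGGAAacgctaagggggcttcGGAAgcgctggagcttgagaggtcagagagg
PARP1: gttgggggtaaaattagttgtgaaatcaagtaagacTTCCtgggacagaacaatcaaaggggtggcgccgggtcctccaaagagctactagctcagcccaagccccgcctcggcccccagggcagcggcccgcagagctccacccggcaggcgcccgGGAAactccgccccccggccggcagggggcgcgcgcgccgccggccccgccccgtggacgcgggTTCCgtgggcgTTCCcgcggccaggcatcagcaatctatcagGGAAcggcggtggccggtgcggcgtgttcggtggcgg
BRCA2: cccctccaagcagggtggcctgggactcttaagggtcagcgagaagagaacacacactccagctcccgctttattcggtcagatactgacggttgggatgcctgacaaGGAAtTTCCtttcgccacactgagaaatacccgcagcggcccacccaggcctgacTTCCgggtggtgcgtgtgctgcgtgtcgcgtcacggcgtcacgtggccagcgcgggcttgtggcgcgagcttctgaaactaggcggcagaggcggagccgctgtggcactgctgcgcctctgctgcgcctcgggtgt

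Entries were found for 8 of the 9 members, all but WEE1. The SLFN11 promoter held 7 GGAA motifs, PARP1 5 and BRCA2 3, while the median over all 35116 RefSeq promoters of the same length was 3 and 95.5% of them held at least 1. PARP2 had 8, a number reached by 3.78% of all promoters, and ATR and all 3 listed CHEK1 starts had 7, as SLFN11 did, which 8.29% of promoters reached. XRCC1 had 3, and the 2 listed BRCA1 starts had 5 and 7. The tandem GGAAGGAA, which contains GGAA and is counted in both, was found in none of these windows, against 3.67% of all promoters. Motifs of the E2F type (TTTCCCGC, TTTGGCGC or TTTCGCGC, the first of which contains TTCC) were likewise found in none, against 2.74%. Of the further motifs searched on both strands, CCAAT (34.6% of all promoters) was present for SLFN11, 1 of the BRCA1 starts, CHEK1 and XRCC1, and TTTGAA (15.2%) for XRCC1. These are matches of letters in a window and not measured binding.

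Levels are given in FPKM as deposited, that is, as reads normalised to gene length and library size, and the values of a group are listed in the order of replicates 1, 2 and 3. A library held between 6980361 and 16658933 reads on genes, and the deepest was EWSR1::FLI1 low replicate 3. The members had between 250 and 6030 reads per library. Replicates of EWSR1::FLI1 low differed from each other more (chi-square per degree of freedom of 20.2 to 31.5 between pairs) than those of EWSR1::FLI1 high did (4.25 to 6.27). The targeted transcript was read as FLI1, whose level was 11.3, 12.7 and 14.2 FPKM in EWSR1::FLI1 high and 2.91, 4.29 and 3.68 FPKM in EWSR1::FLI1 low. Genes were compared with limma on log2(FPKM + 1) and called lower or higher at an adjusted p under 0.01. FLI1 fell by 1.57 on that scale (SE 0.18, limma adjusted p = 0.000676), and reads of the fusion cannot be told apart from those of unfused FLI1. Of 9 Ewing sarcoma markers, 7 were called lower, PRKCB (log2 fold change -2.96), FLI1 and LIPI (-2.44) with the smallest adjusted p, while CD99 averaged 133 ± 13.2 FPKM in EWSR1::FLI1 high and 91.8 ± 11.6 FPKM in EWSR1::FLI1 low (SD, n = 3). The summed level of 6 blood cell markers was 1.04 to 3.67 FPKM and that of 5 epithelial markers 1.42 to 2.44 FPKM in every library, with HBB and EPCAM the only ones above a mean of 0.5 FPKM. In bulk RNA, fewer cells of a type and less RNA per cell cannot be told apart.

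All 9 members had a lower mean in EWSR1::FLI1 low than in EWSR1::FLI1 high, and in 8 of the 9 every EWSR1::FLI1 low library lay below every EWSR1::FLI1 high library, XRCC1 being the exception. Such separation was seen for 23.6% of all genes tested. BRCA2 was the 1 member called lower at 0.01, and 3.37% of all genes passed it as lower. At a limit of 0.05, 6 of the 9 passed, PARP1, PARP2, SLFN11, BRCA1, BRCA2 and CHEK1, against 9.91% of all genes. No member was called higher at either limit, while 4.51% of all genes were higher at 0.01 and 9.87% at 0.05. The members' median log2 fold change was -0.89, beside -0.05 for all 15504 genes tested. Each member was above 50.2% or more of the tested genes in both groups. For the 12578 genes with a mean of at least 1 FPKM the median was -0.115. How far the fold change goes with the level of a gene was not tested. The log2 fold change was below 0 for all 9 members and for 8492 of the 15504 genes. All 9 members passed the filter on low values, a mean of 0.5 FPKM, by a wide margin in both groups. The number called at 0.01 rested on single libraries: it was 0 without any 1 of the EWSR1::FLI1 high replicates or without EWSR1::FLI1 low replicate 2, 2 without EWSR1::FLI1 low replicate 1 and 4 without EWSR1::FLI1 low replicate 3. The number of all genes called lower, 522 with all libraries, moved as well, to 200, 157 and 156 without EWSR1::FLI1 high replicates 1, 2 and 3 and to 726, 279 and 691 without EWSR1::FLI1 low replicates 1, 2 and 3.

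**Figure D1:**
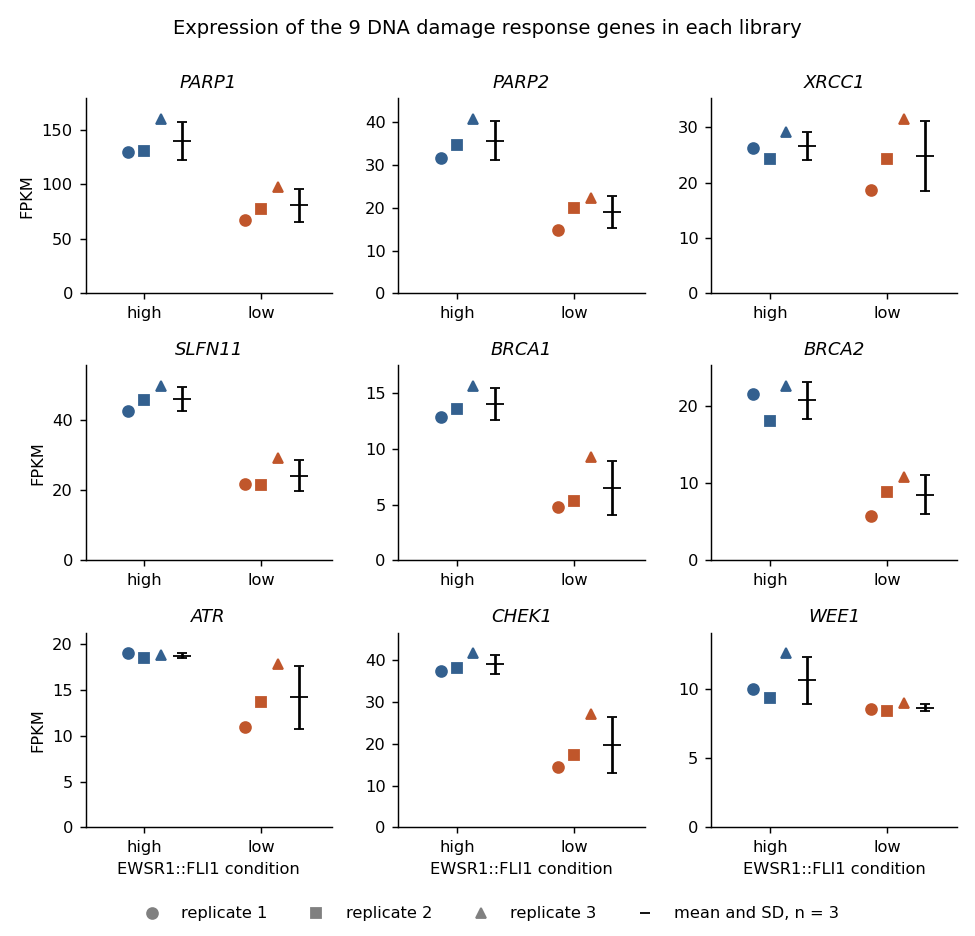
FPKM of each member (vertical axis, from 0) in the 3 EWSR1::FLI1 high (blue) and 3 EWSR1::FLI1 low (orange) libraries, with marker shape giving the replicate number and the black bar the mean and SD. The EWSR1::FLI1 low points lie below the EWSR1::FLI1 high points in every panel but XRCC1.

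Among the enzymes that sense single-strand breaks, PARP1 (GRCh37 chr1:226547911-226595855, minus strand) had 129, 130 and 160 FPKM in the EWSR1::FLI1 high libraries and 66.9, 77.7 and 97.1 FPKM in the EWSR1::FLI1 low libraries. The groups did not overlap, and replicate 3 was the highest in each of them. Its mean in EWSR1::FLI1 low, 80.6 ± 15.3 FPKM, was 57.7% of the 140 ± 17.2 FPKM in EWSR1::FLI1 high (SD, n = 3). On the log2(FPKM + 1) scale used for every fold change here the difference was -0.80 (95% interval -1.24 to -0.35, limma adjusted p = 0.0233). PARP1 was still among the most abundant transcripts, above 97.5% of the tested genes in EWSR1::FLI1 high and above 95% of them in EWSR1::FLI1 low.

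PARP2 (chr14:20811774-20826063, plus strand), the close relative that shares part of the work of PARP1, was at 31.8, 34.8 and 40.7 FPKM without doxycycline and at 14.9, 20.03 and 22.2 FPKM with it. Again the groups did not overlap, the lowest control library being 31.8 FPKM and the highest knockdown library 22.2 FPKM. The log2 fold change was -0.89 (95% interval -1.35 to -0.42, limma adjusted p = 0.019), and the level in EWSR1::FLI1 low was 53.3% of that in EWSR1::FLI1 high. PARP2 had 250 to 653 reads per library, and WEE1, with 280 to 565, was the other member with few reads.

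XRCC1 (chr19:44047463-44084625, minus strand), the scaffold that PARP activity brings to a break, had overlapping groups. Its levels were 26.3, 24.3 and 29.2 FPKM in EWSR1::FLI1 high and 18.7, 24.4 and 31.5 FPKM in EWSR1::FLI1 low, so that the highest and the lowest value both came from the knockdown. The log2 fold change was -0.12 with a 95% interval of -0.62 to 0.38 (limma adjusted p = 0.745), which leaves room for a change of either sign. Leaving out EWSR1::FLI1 low replicate 1 turned it to 0.06.

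The EWSR1::FLI1 high libraries had 42.8, 45.8 and 49.7 FPKM of SLFN11 (chr17:33677324-33700720, minus strand) and the EWSR1::FLI1 low libraries 21.7, 21.6 and 29.3 FPKM. The control libraries lay close together, and all 3 knockdown libraries were far below them. The mean was 46.1 ± 3.49 FPKM in EWSR1::FLI1 high and 24.2 ± 4.43 FPKM in EWSR1::FLI1 low (SD, n = 3), 1.91-fold higher in the former. The log2 fold change was -0.91 (SE 0.19, 95% interval -1.35 to -0.48) and its limma adjusted p of 0.0121 missed the limit of 0.01. In 13 of 15 alternative settings the adjusted p of SLFN11 was under 0.05, and over all 15 it ranged from 0.000244 to 0.0706. Among the 15, median-ratio scaling repeated a scaling that the values already carried, and left the adjusted p of SLFN11 at 0.0121. SLFN11 was second to PARP1 among the members in EWSR1::FLI1 high, above 88% of the tested genes, and was above 78.9% of them in EWSR1::FLI1 low.

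The homologous recombination genes had the largest differences among the members. BRCA2 (chr13:32889223-32974405, plus strand) was at 21.6, 18.0 and 22.5 FPKM without doxycycline and at 5.78, 8.91 and 10.8 FPKM with it. Every knockdown library was thus well under the lowest control library. BRCA2 fell by 1.22 on the log2 scale (SE 0.23, 95% interval -1.75 to -0.70, limma adjusted p = 0.00783), to 41.1% of its level in EWSR1::FLI1 high. That call was lost when EWSR1::FLI1 high replicate 1, 2 or 3 or EWSR1::FLI1 low replicate 2 was left out (adjusted p of 0.0344, 0.0291, 0.0434 and 0.0167) and when no filter on low values was used (0.0159), while its adjusted p stayed at or under 0.0434 in all 15 alternatives.

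BRCA1 (chr17:41196312-41322262, minus strand) was at 12.8, 13.6 and 15.6 FPKM without doxycycline and at 4.81, 5.35 and 9.24 FPKM with it. Replicates 1 and 2 of the knockdown were nearly equal, and replicate 3 stood between them and the controls. The log2 fold change was -1.05 (95% interval -1.58 to -0.52, limma adjusted p = 0.0158), with 46.1% of the control level remaining. Leaving out EWSR1::FLI1 low replicate 3 took it past the limit of 0.01, at -1.30 on the log2 scale (limma adjusted p = 0.00411). The annotation places the pseudogene BRCA1P1 within the BRCA1 locus, and a read from such a near copy may be assigned to either.

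Of the checkpoint kinases, CHEK1, which encodes the effector that slows origin firing and entry into mitosis, had the largest difference. The gene lies at chr11:125495058-125546150, plus strand. It was measured at 37.3, 38.2 and 41.6 FPKM without doxycycline and at 14.5, 17.4 and 27.1 FPKM with it. The groups did not overlap, although EWSR1::FLI1 low replicate 3 lay well above the other two knockdown libraries. The log2 fold change of -0.999 (95% interval -1.54 to -0.46) missed the limit of 0.01, with a limma adjusted p of 0.0202. Without EWSR1::FLI1 low replicate 3 the value was -1.24 (adjusted p = 0.00458). CHEK1 overlaps STT3A on the same strand in the annotation, and STT3A was expressed at a mean of 71.0 FPKM, so part of the reads may be shared between them.

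ATR (chr3:142167849-142297575, minus strand), the kinase that senses single-stranded DNA at stalled forks and activates CHK1, was nearly constant in EWSR1::FLI1 high, at 19.01, 18.46 and 18.84 FPKM, and spread out in EWSR1::FLI1 low, at 11, 13.7 and 17.9 FPKM. The groups did not overlap, but the highest knockdown library came close to the lowest control. Its log2 fold change was -0.40 with a 95% interval of -0.87 to 0.06 (limma adjusted p = 0.198).

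WEE1 (chr11:9595217-9615004, plus strand), the kinase that holds CDK1 and CDK2 inactive, was the least abundant member in EWSR1::FLI1 high. It had 9.98, 9.33 and 12.6 FPKM there and 8.59, 8.44 and 8.96 FPKM with doxycycline. These groups too did not overlap, by a gap smaller than the range of the controls, and the knockdown libraries were close together. The log2 fold change was -0.26 with a 95% interval of -0.65 to 0.14 (limma adjusted p = 0.335), and in none of the 15 alternatives was it under 0.05.

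**Figure D2:**
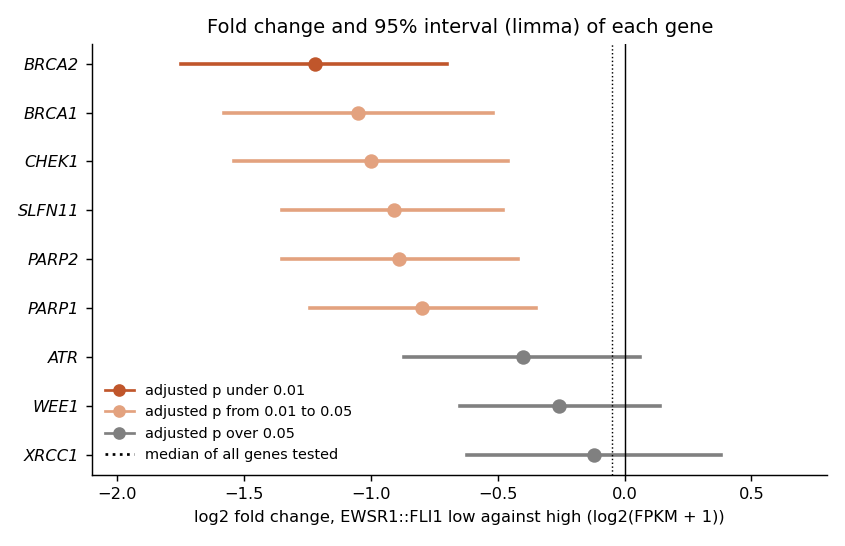
Log2 fold change of each member (horizontal axis, EWSR1::FLI1 low against high on log2(FPKM + 1)) with the 95% interval from limma as a bar the colour giving the adjusted p and a dotted line at the median of all genes tested. The intervals of ATR, WEE1 and XRCC1 cross 0, and those of the other 6 lie between -1.75 and -0.35 and overlap each other.

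The order of levels among the members differed between the conditions. In EWSR1::FLI1 high the means ran from PARP1 (140 FPKM) through SLFN11 (46.1), CHEK1 (39.0), PARP2 (35.8), XRCC1 (26.6), BRCA2 (20.7), ATR (18.8) and BRCA1 (14.02) to WEE1 (10.6). Among these neighbours the ranges of CHEK1 and PARP2 overlapped, as did those of BRCA2 and ATR, and the others were apart. In EWSR1::FLI1 low PARP1 was still first at 80.6 FPKM, but XRCC1 (24.9 FPKM) came second, beside SLFN11 (24.2), CHEK1 (19.7), PARP2 (19.04) and ATR (14.2), each overlapping the next. WEE1 (8.66 FPKM), BRCA2 (8.501) and BRCA1 (6.47) followed, apart from ATR, with WEE1 overlapping BRCA2 and BRCA2 overlapping BRCA1. SLFN11, apart from the members on either side of it in the controls, was thus not apart from XRCC1 and CHEK1 in the knockdown.

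Within EWSR1::FLI1 low, replicate 3 had the highest level of all 9 members. Relative to the EWSR1::FLI1 high mean, the SLFN11 level was 47.0%, 46.9% and 63.6% in replicates 1, 2 and 3, and that of BRCA1 34.3%, 38.1% and 65.9%. The summed FPKM of 20 cell cycle markers stood at 31.5%, 39.0% and 65.4% of the control mean in the same libraries. Replicate 3 was again the highest for all 20 of them. FLI1 was highest in replicate 2 of EWSR1::FLI1 low, where its reads may come from the fusion or from unfused FLI1. Replicate 3 was the deepest of the 6 libraries. EWSR1::FLI1 low replicate 1 had the fewest reads on genes, 6980361, but a size factor of 0.951. That was larger than the 0.877 of EWSR1::FLI1 low replicate 2, which had 8570957 reads. The part of depth, scaling, strength of the knockdown or cell cycle in the members' values was not tested.

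**Figure D3:**
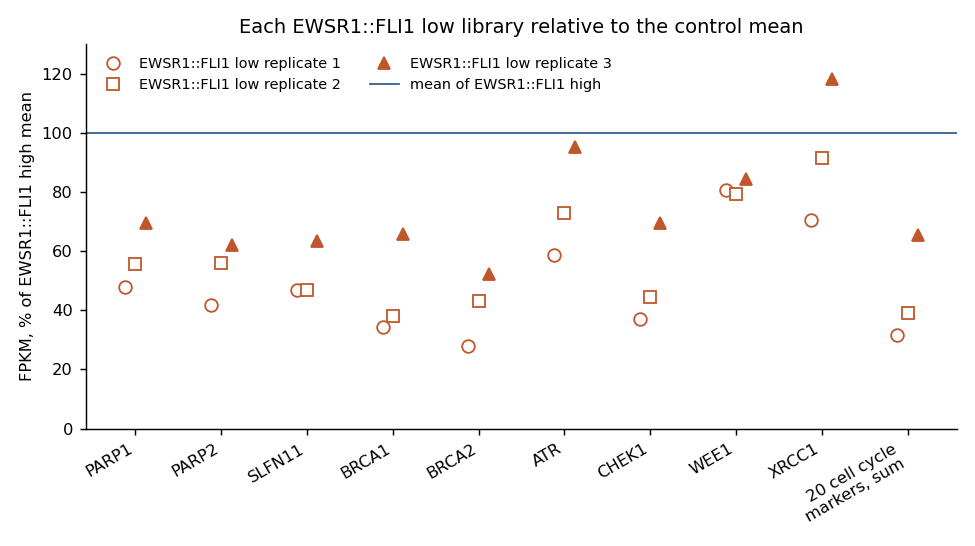
FPKM of each member in the 3 EWSR1::FLI1 low libraries as a percentage of the EWSR1::FLI1 high mean (line at 100), with the sum of 20 cell cycle markers at the right. Filled triangles, replicate 3, are the highest point of every column.

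The cell cycle markers are proteins that cells make while they replicate DNA or divide, as many repair proteins are. Their summed level was 1717 to 1994 FPKM in EWSR1::FLI1 high and 571 to 1187 FPKM in EWSR1::FLI1 low. Of the 20, 6 passed the test as lower (MCM2, MCM3, MCM6, MCM7, PCNA and RRM2), 18 had an adjusted p under 0.05 in the lower direction and none was higher, with a median log2 fold change of -1.19. PCNA, the sliding clamp of replication forks, averaged 247 ± 3.99 FPKM in EWSR1::FLI1 high and 111 ± 34.8 FPKM in EWSR1::FLI1 low (SD, n = 3). MCM6, a subunit of the replicative helicase, fell by 1.23 on the log2 scale (limma adjusted p = 0.0026), and CCNB1, the highest expressed of those not called, had -0.99 (adjusted p = 0.0456). Among the members, BRCA2 was nearest to the list's median, and the differences of WEE1, ATR and XRCC1 were the smallest beside it. How much of the members' difference goes with this list was not tested.

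For a wider view, 132 genes in 9 lists of repair, checkpoint, R-loop and Schlafen genes were read from the same fit, the members among them. Of the 128 that passed the filter on low values, 17 were lower and 1 was higher at an adjusted p under 0.01, 55 were lower and 1 was higher at 0.05, and 84 had every EWSR1::FLI1 low library below every EWSR1::FLI1 high library. Their median log2 fold change was -0.56, and 118 were below 0. The number lower at 0.01 was 2, 1 and 1 without EWSR1::FLI1 high replicates 1, 2 and 3. It was 18, 5 and 39 without EWSR1::FLI1 low replicates 1, 2 and 3. Of all 15504 genes tested, 3.37% were lower and 4.51% higher at 0.01, and 9.91% and 9.87% at 0.05. Every EWSR1::FLI1 low library lay below every EWSR1::FLI1 high library for 23.6% of them, and 8492 had a log2 fold change below 0. These shares stand beside the counts of every list in this report.

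Homologous recombination held the most called genes, 8 of 24 lower and none higher, with a median of -0.98. EXO1, the nuclease that extends resection from a break, fell by 2.02 on the log2 scale, from 54.1 ± 8.80 to 13.0 ± 4.89 FPKM (SD, n = 3, limma adjusted p = 0.00114). XRCC3, which also acts in strand exchange, fell by 1.49 (adjusted p = 0.00218), and BLM, the helicase that dissolves recombination intermediates, by 1.56 (adjusted p = 0.00295). SHFM1, which binds BRCA2 and was the most abundant gene of the list, averaged 307 ± 16.5 FPKM in EWSR1::FLI1 high and 218 ± 52.3 FPKM in EWSR1::FLI1 low (adjusted p = 0.101). BARD1, the obligate partner of BRCA1, was looked up after its values were seen and had a log2 fold change of -0.82 (limma adjusted p = 0.0243), beside -1.05 for BRCA1.

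In the Fanconi anaemia list, whose products unhook DNA crosslinks and protect forks, 5 of 18 genes were lower and none was higher, with a median of -0.76. The pair that is monoubiquitinated at crosslinks, FANCI and FANCD2, fell by 1.48 and 1.31 on the log2 scale (limma adjusted p of 0.00478 and 0.00859). UBE2T, the enzyme that conjugates ubiquitin to them, fell by 1.29 (adjusted p = 0.00795), and the core complex subunits FANCE and FANCA by 1.06 and 1.02 (adjusted p of 0.00314 and 0.00968). FANCL, the ligase itself, had -0.69 (adjusted p = 0.0518).

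The ATR, CHK1 and WEE1 list had 1 called gene of 21, CDC25A, the phosphatase that CHK1 marks for destruction, which fell by 1.65 on the log2 scale (limma adjusted p = 0.00539). At an adjusted p under 0.05, 10 of the 21 were lower and none was higher. RPA2, a subunit of the single-strand binding protein that recruits ATR, was the most abundant of those not called and averaged 80.6 ± 5.70 FPKM in EWSR1::FLI1 high and 43.3 ± 14.2 FPKM in EWSR1::FLI1 low (SD, n = 3, adjusted p = 0.0298). The ATM and CHK2 list had 1 of 12, CHEK2 (log2 fold change -1.23, adjusted p = 0.00513), with RIF1, which limits resection, at -0.69 (adjusted p = 0.0364).

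Single-strand break repair, the list of PARP1, PARP2 and XRCC1, had none of 16 genes called at 0.01 and 5 lower at 0.05, with a median of -0.43. Those 5 were PARP1, PARP2, LIG1, FEN1 and C4orf27, the last also known as HPF1, which directs PARP1 to serine residues. PARP3, a further PARP enzyme of the list looked up after its values were seen, averaged 1.21 ± 0.313 FPKM in EWSR1::FLI1 high and 2.84 ± 1.21 FPKM in EWSR1::FLI1 low (SD, n = 3). Its groups overlapped, and its log2 fold change was 0.75 (95% interval 0.16 to 1.34, limma adjusted p = 0.0738). Named after its value was seen, C4orf27 averaged 42.1 ± 3.01 FPKM in EWSR1::FLI1 high and 25.6 ± 5.98 FPKM in EWSR1::FLI1 low (SD, n = 3, limma adjusted p = 0.0403). PARG, which removes ADP-ribose chains, was likewise looked up afterwards and had a log2 fold change of -0.39 (95% interval -0.78 to 0.01, adjusted p = 0.152). In base excision repair, NTHL1, a glycosylase for oxidised pyrimidines, was the 1 called gene of 12 tested (fell by 1.18, adjusted p = 0.00482), and APEX1, the main abasic site endonuclease, had -0.33 (adjusted p = 0.424).

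End joining had 1 called gene of 11, POLQ, the polymerase of theta-mediated joining on which cells without homologous recombination depend. POLQ fell by 1.58 on the log2 scale, from 18.4 ± 1.96 to 5.77 ± 2.57 FPKM (SD, n = 3, limma adjusted p = 0.00378). XRCC6, the Ku70 subunit that starts classical joining, was at 292 ± 11.2 and 213 ± 52.1 FPKM (adjusted p = 0.121). No gene of 10 for RNase H, R-loops and topoisomerases was called at 0.01 and 3 were lower at 0.05, while TOP2B averaged 138 ± 3.20 FPKM in EWSR1::FLI1 high and 119 ± 1.32 FPKM in EWSR1::FLI1 low (adjusted p = 0.356).

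**Figure D4:**
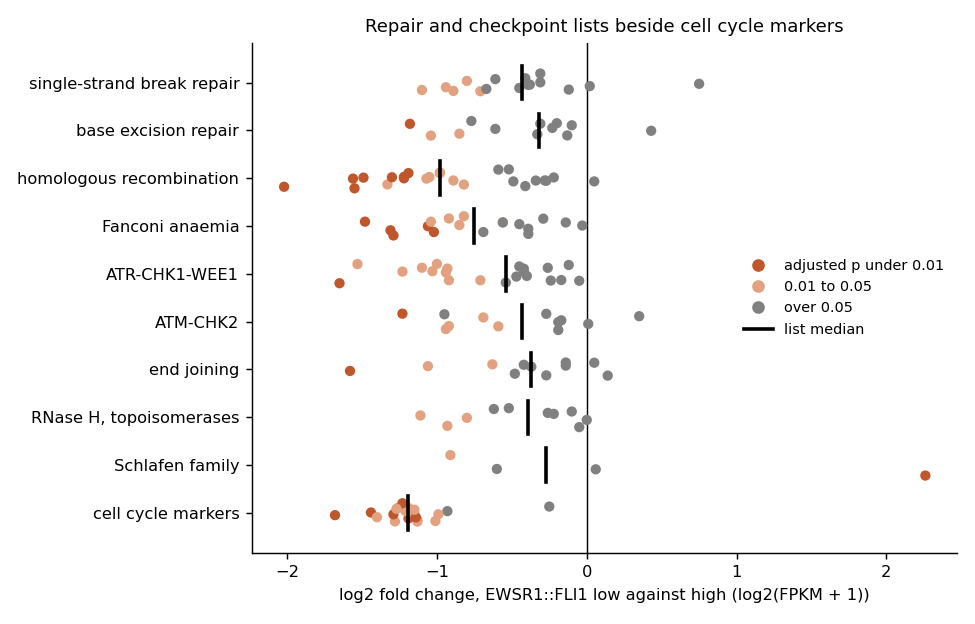
Log2 fold change (horizontal axis, EWSR1::FLI1 low against high on log2(FPKM + 1)) of every tested gene of 9 pathway lists and of the cell cycle markers, 1 point per gene, coloured by limma adjusted p, with the list median as a black bar. Medians run from -0.27 for the Schlafen family to -0.98 for homologous recombination, beside -1.19 for the cell cycle markers.

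The Schlafen family was the list in which a gene rose. SLFN5, a nuclear Schlafen protein encoded in the same gene cluster as SLFN11, was at 4.39, 5.75 and 4.75 FPKM without doxycycline and at 17.6, 35.4 and 33.2 FPKM with it. All 3 knockdown libraries lay above all 3 controls, the reverse of SLFN11. It rose by 2.26 on the log2 scale (95% interval 1.66 to 2.87, limma adjusted p = 0.000748). In the controls SLFN11 was thus the main Schlafen transcript by level per length, whereas in EWSR1::FLI1 low SLFN5 averaged 28.7 ± 9.67 FPKM beside 24.2 ± 4.43 FPKM for SLFN11 (SD, n = 3), with overlapping ranges.

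The other Schlafen genes were scarce. SLFN12L had 1.38 ± 0.441 and 0.559 ± 0.174 FPKM in EWSR1::FLI1 high and low (SD, n = 3, limma adjusted p = 0.0575), on 7 to 26 reads per library, and SLFN12 at 0.891 ± 0.243 and 0.960 ± 0.0448 FPKM (adjusted p = 0.843). SLFN13, SLFN14 and SLFNL1 did not reach the mean of 0.5 FPKM needed for testing. How reads shared between such related genes were counted is not given in the sources used here. Schlafen genes are known to respond to interferon, and of 13 tested interferon-stimulated genes 3 were higher at 0.01 (IFIT3, IRF9 and IFIT2) and none was lower, with a median log2 fold change of 0.44.

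**Figure D5:**
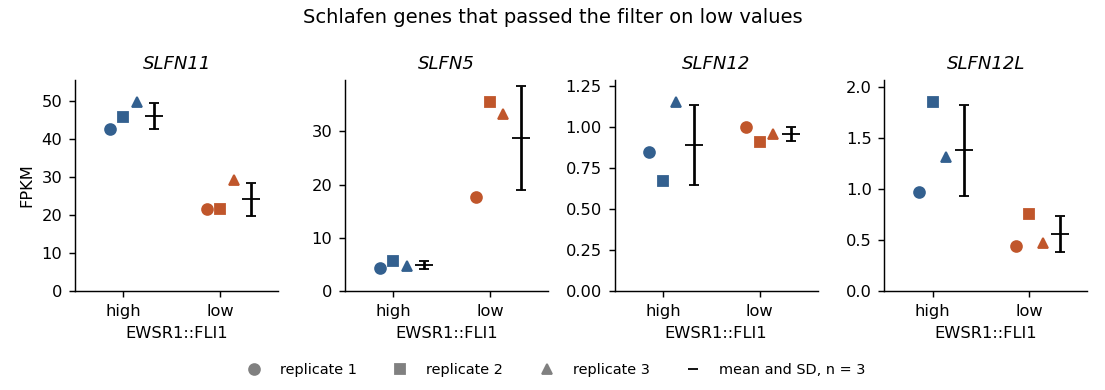
FPKM (vertical axes, from 0 and different in each panel) of the 4 tested Schlafen genes in EWSR1::FLI1 high (blue) and EWSR1::FLI1 low (orange) libraries, with the mean and SD in black. SLFN11 is lower and SLFN5 higher in all 3 EWSR1::FLI1 low libraries than in any control.

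Damage-induced p53 targets were read as the transcripts that follow DNA damage signalling. Of 15, 1 was higher and none was lower at 0.01, with a median log2 fold change of 0.18. TP53I3 rose by 1.28 (limma adjusted p = 0.0049), and GADD45A, the most abundant of those not called, was at 32.3, 38.5 and 44.7 FPKM without doxycycline and at 34.5, 118 and 66.5 FPKM with it (adjusted p = 0.206). In this list 5 of the 15 log2 fold changes were below 0.

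The transcripts whose profiles over the 6 libraries were nearest to SLFN11 were MRE11A, MRPS27 and ORC2, with root mean square differences of 0.0362, 0.0437 and 0.0445 in centred log2(FPKM + 1). MRE11A encodes the nuclease of the MRN complex and was at 23.9, 25.8 and 27.4 FPKM without doxycycline and at 11.5, 12.4 and 16.7 FPKM with it. PARP1 stood at position 82 in that order, with a difference of 0.0999, BRCA1 at 242 and CHEK1 at 237. The nearest to PARP1 were WHSC1, WRAP53 and NUFIP1 (0.0351, 0.0372 and 0.0378), with PARP2 at position 63 and SLFN11 at 137. Among the 15504 profiles XRCC1 was at position 5445 from SLFN11 and 4784 from PARP1. These positions describe 6 libraries in 2 groups, and all genes compared share those libraries.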

How the data were processed

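RNAseq of ribosomal RNA-depleted total RNA was analysed in 3 EWSR1::FLI1 high and 3 EWSR1::FLI1 low samples, grouped by their labels. The submitters' processing notes name STAR 2.5.0b, Cufflinks 2.2.1, bedtools 2.17.0, DESeq2 1.6.3 and GRCh37. For each symbol the authors deposited 1 FPKM value a library, and a table of their own comparison, from which only the deposited signal of each gene, its mean normalized count, was used, to recover reads. Its fold changes and p-values were not used. Multiplied by the ratio of that signal to the mean FPKM, 100% of the values above 0 were whole reads within 0.1, so the FPKM values had been scaled by library size factors (0.829 to 1.67). Reads on genes were 6980361 to 16658933 per library, and counting error is the only error that depth covers.

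Genes with a mean of at least 0.5 FPKM (15504) were tested with limma 3.58.1 in R 4.3.3 (lmFit, eBayes with trend) on log2(FPKM + 1), which understates the fold change of low genes, without a replicate term, with Benjamini-Hochberg adjustment over all 15504 and a limit of 0.01 on the adjusted p. The steps were tested on simulated data. The members and gene lists were chosen with earlier results of these data known. Named are the members, FLI1, from each list the genes called at 0.01 (the 3 smallest adjusted p values in each direction where over 6 were called) and the most abundant gene not called, and the 3 profiles nearest to SLFN11 and PARP1. Alternatives were a pseudocount of 0.1, no filter, a mean of at least 1 FPKM, quantile normalization, median-ratio scaling, a replicate block, eBayes without trend, sample quality weights, limma-voom on the recovered reads, an adjusted p under 0.05 and leaving out each library. Gene overlaps were read from GENCODE v44 lifted to GRCh37, and promoters from the RefSeq table, whose sequences were placed on GRCh37 by exact match. Whether reads were counted by strand is not given in the sources used here. Figures were drawn with matplotlib 3.10.9 in Python 3.11.15. Most genes of the lists are given by counts alone, and some that the naming rule holds are not reported here. Protein levels were not analysed here.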

Additional observations from a re-analysis of the deposited data

How the results depend on the processing

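The count of members called lower, 1 with the reported settings, was 0 with no filter on low values (24488 genes tested), 6 with quantile normalization, 6 with sample quality weights, 4 with limma-voom on the recovered reads, 6 at an adjusted p under 0.05 and 0 to 4 when libraries were left out in turn. The count of pathway genes called lower, 17, was 7, 42, 60, 34 and 55 under the same settings and 1 to 39 when libraries were left out, and that called higher, 1, was 3 with sample quality weights and 1 to 2 when libraries were left out. No member was called higher in any of these settings. Over all genes tested, 522 were called lower with the reported settings, 297 with no filter, 1000 with quantile normalization, 2257 with sample quality weights, 782 with limma-voom, 1537 at an adjusted p under 0.05 and 156 to 726 when libraries were left out, so the whole table moved with the members. The cause of these shifts was not tested. FLI1 kept its call in every alternative run.

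XRCC1 changed sign with quantile normalization, to 0.04, and its log2 fold change ranged from -0.30 to 0.06 when libraries were left out. The other 8 members kept a negative fold change throughout, for SLFN11 from -1.05 to -0.74 and for PARP1 from -0.94 to -0.59, with adjusted p of 0.000941 to 0.119 for PARP1. A replicate block gave 4 members and 37 pathway genes as lower, among 786 of all genes. Same-numbered libraries correlated with r = 0.271, 0.089 and 0.124 in their deviations from the group means. Differently numbered ones had r of -0.008, -0.242, -0.289, 0.189, -0.052 and -0.089. The study states no block, so the reported fit had no replicate term. Whether same-numbered libraries are pairs was not settled. With 3 libraries a group and a wide spread within EWSR1::FLI1 low, the intervals of ATR, WEE1 and XRCC1 leave room for differences of the size of their estimates.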

Other observations

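Other repair pathways were read from 4 lists chosen after the members' results were seen, and none of their tested genes was called at an adjusted p under 0.01. In mismatch repair, 2 of 7 genes were lower at 0.05. MSH6, which recognises mispaired bases, averaged 105.5 ± 4.77 FPKM in EWSR1::FLI1 high and 61.4 ± 12.1 FPKM in EWSR1::FLI1 low (SD, n = 3), a log2 fold change of -0.79 (limma adjusted p = 0.0212). Nucleotide excision repair, which removes bulky lesions, had a median log2 fold change of -0.14 over 10 tested genes, with 3 lower and 1 higher at 0.05. Its pair in transcription-coupled repair differed in sign, ERCC8 having a log2 fold change of -0.77 (limma adjusted p = 0.0249) and ERCC6 one of 0.69 (adjusted p = 0.0415).

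Translesion synthesis, with which forks pass damaged bases, had 1 of 10 genes lower at 0.05, the fork remodeller HLTF (log2 fold change -0.73, limma adjusted p = 0.0266), and a median of -0.11. Direct reversal had none of 3, and MGMT, which removes methyl groups from guanine, was at 14.6 ± 0.585 FPKM in EWSR1::FLI1 high and 12.3 ± 1.17 FPKM in EWSR1::FLI1 low (SD, n = 3, adjusted p = 0.377). TOP1, the target of the camptothecins and named here after its values were seen, was at 51.5 ± 6.95 and 51.4 ± 6.61 FPKM, a log2 difference with a 95% interval of -0.44 to 0.43.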
